A study of Homo sapiens with 12 samples.

Results

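Bone morphogenetic protein (BMP) signaling genes were examined in SMARCA4 knockout (KO) breast cancer cells. The group held 10 genes, namely the ligands BMP4 and BMP7, the receptors BMPR1A and BMPR2, the signal transducers SMAD1 and SMAD5, the inhibitory SMAD6, and the targets ID1, ID2 and ID3. They were taken by symbol, and all 10 were found among the 11529 genes of the expression table. The symbols had been selected on the measured expression changes after KO in these same samples, and their levels and fold changes are therefore given as a description, without p-values.

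RNA was sequenced from 2 triple-negative breast cancer (TNBC) cell lines, MDA-MB-468, an epithelial line of the basal/stem-like kind, and MDA-MB-231, a mesenchymal-like line. Each line had 3 control and 3 SMARCA4 KO samples, 12 in all. Control cells are titled as wild type and described as control. The study distinguishes parental cells from a control with a nontargeting vector in its protein blots, so that which of these the sequenced controls were cannot be told from the labels. KO cells had received a lentiviral CRISPR construct with a guide to an early exon of SMARCA4, the ATPase of the SWI/SNF chromatin remodeling complex, and were puromycin-selected pools rather than single clones. A pool can hold edited and unedited cells, so that fewer cells expressing a gene and less RNA per cell cannot be told apart. No label says that the replicates were separate cultures, so that a p-value measures the spread between these samples, which may be technical.

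BMPs are secreted ligands that bring type II receptors such as BMPR2 together with type I receptors such as BMPR1A. The type I receptor phosphorylates SMAD1 and SMAD5, which enter the nucleus with the shared partner SMAD4, and the genes of the ID family are the best known of their direct targets. ID proteins have a helix-loop-helix domain without a DNA-binding part, and they hold back the E proteins (TCF3, TCF4 and TCF12) and other basic helix-loop-helix factors. SMAD6, itself induced by BMPs, dampens the signal.

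Levels are given as log2(FPKM + 1), where FPKM is the number of fragments per kilobase of transcript scaled to the mapped fragments of the library, in the order of replicates 1, 2 and 3. Read depth is unknown, since the table holds no counts. In each sample 11293 to 11362 genes had a value over 0. Control MDA-MB-468 cells had higher levels than control MDA-MB-231 cells of all 5 epithelial markers (EPCAM, CDH1, KRT18, KRT19 and EGFR), and control MDA-MB-231 cells had higher levels of VIM, CAV1 and AXL. CD44, listed as a mesenchymal marker, went the other way, at 9.80 in control MDA-MB-468 and 8.91 in control MDA-MB-231 cells. SPARC, the hormone receptor genes ESR1 and PGR, and the leukocyte genes PTPRC and CD3E were not in the table. The fibroblast markers COL1A1, DCN and PDGFRA were not in it either. CD68, also listed as a leukocyte gene, was at 95.8 FPKM in control MDA-MB-231 and 1.67 FPKM in control MDA-MB-468 cells. ERBB2, listed with the hormone receptors, was at 23.8 and 22.9 FPKM in the same order.

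SMARCA4 mRNA was lower in all KO samples. In MDA-MB-468 cells it was 6.61, 6.62 and 6.68 in the controls and 5.35, 5.48 and 5.61 after KO, a log2 fold change (FC) of -1.16 (standard error (SE) 0.0751, limma adjusted p = 0.014) that left 44.3% of the control FPKM. In MDA-MB-231 cells it was 6.10, 6.18 and 6.09 in the controls and 4.46, 4.64 and 4.56 after KO, a log2 FC of -1.57 (SE 0.0611, limma adjusted p = 0.0014) that left 32.7%. These values are of mRNA, and indels at the guide site were not analysed here.

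In MDA-MB-231 cells BMP4, ID1 and ID2 rose after SMARCA4 KO. The KO samples of ID3 lay above its controls although it missed the DEG criteria, which it met under some alternative settings. ID4, outside the 10 genes, lay below its controls there, at 0.203 FPKM in the controls and 0.02 FPKM after KO. In MDA-MB-468 cells ID1 was the only ID gene whose KO samples all lay above the controls. DEGs, here and throughout, had a limma adjusted p below 0.05 over all 11529 genes and an absolute log2 FC above 0.5. In MDA-MB-231 cells 3 of the 10 genes (BMP4, ID1 and ID2) met these criteria, all higher after KO, in a comparison where 3.70% of all genes met them and 2.39% did so as higher. In MDA-MB-468 cells 0 of the 10 met them with limma, 3 had an unadjusted p below 0.05, and 2.14% of all genes met the criteria. All 3 KO samples lay above all 3 controls for 6 of the 10 genes in MDA-MB-231 cells, as for 16.6% of all genes, and for 2 of the 10 in MDA-MB-468 cells, as for 17.5% of all genes. The median log2 FC of the 10 genes was 0.30 in MDA-MB-231 cells, where that of all genes was -0.0064, and -0.10 in MDA-MB-468 cells, where that of all genes was 0.02. Since these contrasts chose the genes, nothing is read from these counts and medians.

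**Figure D1:**
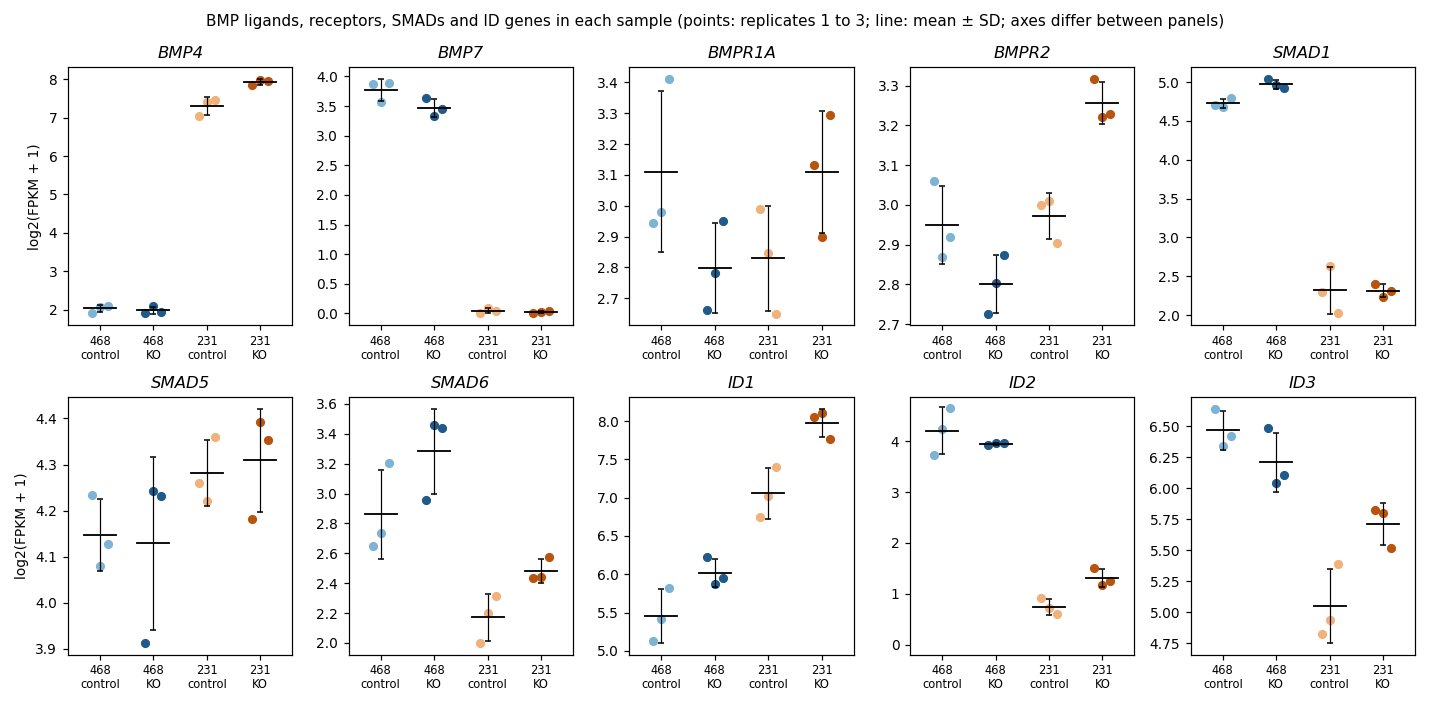
Expression of the 10 genes in each of the 12 samples, as log2(FPKM + 1) on a vertical axis that differs between panels. Points are replicates 1 to 3 of the lines MDA-MB-468 (blue) and MDA-MB-231 (orange), light for control and dark for SMARCA4 KO, and lines show the mean ± SD. In MDA-MB-231 cells the KO points of BMP4, BMPR2, SMAD6, ID1, ID2 and ID3 lie above all control points, and in MDA-MB-468 cells those of SMAD1 and ID1 do.

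The ligands differed between the lines far more than they did after KO. BMP4, a ligand of many developing tissues (GRCh37 chr14:54416454-54425479, minus strand), was 7.05, 7.40 and 7.46 in control MDA-MB-231 cells and 7.84, 7.99 and 7.95 after KO. All 3 KO samples were above all 3 controls, and the spread among them was smaller, with 7.93 ± 0.08 after KO and 7.30 ± 0.22 in the controls (SD, n = 3 each). The log2 FC was 0.62 (SE 0.12), and the mean rose from 158 to 242 FPKM. At that level BMP4 stood above 94.7% of all genes in control and 97.0% in KO MDA-MB-231 cells.

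In MDA-MB-468 cells BMP4 was 1.92, 2.08 and 2.09 in the controls and 1.93, 2.09 and 1.95 after KO. The groups overlapped fully, with a log2 FC of -0.04 (SE 0.0735). The control mean of 3.10 FPKM was 51.1-fold below that of control MDA-MB-231 cells. BMP7, the ligand of the osteogenic protein-1 kind (chr20:55743809-55841697, minus strand), had the opposite distribution. It was 3.87, 3.57 and 3.89 in control MDA-MB-468 cells and 3.63, 3.33 and 3.44 after KO, groups that overlapped at a log2 FC of -0.30 (SE 0.12). In MDA-MB-231 cells it was at or near 0 in every sample, with a highest value of 0.08. Each line expressed mainly a single ligand of the pair, BMP4 in the MDA-MB-231 line and BMP7 in the MDA-MB-468 line. The table holds only genes with an average and an SD of FPKM of at least 1 over all samples. BMP7, near 0 in MDA-MB-231 cells, thus entered it through MDA-MB-468 cells and had to differ between the lines, so that nothing is read from its difference.

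The receptors were at similar, modest levels in both lines. BMPR2, the type II receptor (chr2:203241050-203432474, plus strand), was 3.0, 3.01 and 2.90 in control MDA-MB-231 cells and 3.32, 3.22 and 3.23 after KO. The KO samples lay above all controls at a log2 FC of 0.28 (SE 0.0529), below the 0.5 that a DEG required. In MDA-MB-468 cells BMPR2 was 3.06, 2.87 and 2.92 in the controls and 2.73, 2.80 and 2.87 after KO, with a log2 FC of -0.15 (SE 0.0705) and overlapping groups. BMPR1A, the type I receptor (chr10:88516353-88692582, plus strand), overlapped between control and KO samples in both lines. Its log2 FC was -0.31 (SE 0.149) in MDA-MB-468 cells, from 2.94, 2.98 and 3.41 to 2.66, 2.78 and 2.95. In MDA-MB-231 cells it was 0.28 (SE 0.131), from 2.99, 2.85 and 2.65 to 3.13, 2.90 and 3.29. The annotation has the processed pseudogenes BMPR1AP1 and BMPR1AP2, which can share reads with BMPR1A, so that its level is less certain.

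SMAD5 overlapped between control and KO in both lines. This transducer (chr5:135468534-135524435, plus strand) had a log2 FC of -0.02 (SE 0.105) in the MDA-MB-468 line and 0.03 (SE 0.0738) in the MDA-MB-231 line, and its 12 values lay between 3.91 and 4.39. SMAD1, the other transducer (chr4:146402346-146480328, plus strand), was at 25.5 FPKM in control MDA-MB-468 cells and at 4.06 FPKM in control MDA-MB-231 cells. In MDA-MB-468 cells it was 4.70, 4.68 and 4.80 in the controls and 5.04, 4.96 and 4.92 after KO. The groups did not overlap, though the log2 FC was small at 0.24 (SE 0.0566). In MDA-MB-231 cells it was 2.30, 2.63 and 2.03 in the controls and 2.40, 2.23 and 2.31 after KO, where the KO samples lay within the range of the controls at a log2 FC of -0.01 (SE 0.154).

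SMAD6 (chr15:66994574-67075187, plus strand) had a higher mean after KO in both lines. In MDA-MB-231 cells it was 2.00, 2.20 and 2.31 in the controls and 2.44, 2.44 and 2.58 after KO, without overlap, at a log2 FC of 0.31 (SE 0.0931). In MDA-MB-468 cells it was 2.65, 2.74 and 3.20 in the controls and 2.95, 3.46 and 3.44 after KO. There the groups overlapped, and the log2 FC of 0.42 carried an SE of 0.203. Antisense genes overlap BMP4, BMP7, SMAD1, SMAD5 and ID2 in the annotation, and pseudogenes on the other strand overlap BMPR1A and BMPR2. On the same strand a noncoding gene overlaps SMAD6, and a small nuclear RNA gene overlaps BMPR1A. A protein-coding gene and a processed pseudogene on the same strand overlap BMPR2. The library kit keeps strand, but whether the counting used it is not given in the sources used here.

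ID1 had the largest log2 FC of the 10 genes in each line. ID1 (chr20:30193086-30194318, plus strand) was 6.75, 7.02 and 7.40 in control MDA-MB-231 cells and 8.06, 8.11 and 7.76 after KO. The KO samples lay above all controls, the log2 FC was 0.92 (SE 0.185), and the mean rose from 134 to 252 FPKM. In MDA-MB-468 cells ID1 was 5.12, 5.41 and 5.83 in the controls and 6.23, 5.87 and 5.96 after KO, again without overlap. Its log2 FC there was 0.56 (SE 0.197), and it did not meet the DEG criteria. Without control replicate 3 the log2 FC was 0.75 and without control replicate 1 it was 0.40, so that its size varied with the control samples. The 4 groups of ID1 were in a fixed order without overlap, from MDA-MB-231 KO over MDA-MB-231 control and MDA-MB-468 KO to MDA-MB-468 control.

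ID3 (chr1:23884417-23885992, minus strand) was 4.83, 4.94 and 5.39 in control MDA-MB-231 cells and 5.82, 5.80 and 5.52 after KO. All KO samples were above the controls, with a log2 FC of 0.67 (SE 0.169), but ID3 did not meet the DEG criteria. It did meet them with a filter on mean log2 values over 2, with scaling to the 75th percentile and in 1 fit of all samples. In MDA-MB-468 cells ID3 was 6.64, 6.34 and 6.42 in the controls and 6.48, 6.04 and 6.11 after KO, overlapping, at a log2 FC of -0.26 (SE 0.143). ID2 (chr2:8818975-8824591, plus strand) was close to the lower end of the table in MDA-MB-231 cells, at 0.92, 0.71 and 0.60 in the controls and 1.52, 1.17 and 1.25 after KO. These groups did not overlap either, at a log2 FC of 0.57 (SE 0.122), between means of 0.683 and 1.5 FPKM. The 1 added to each FPKM compresses such low values, and with 0.1 added instead the log2 FC of ID2 was 1.04. In MDA-MB-468 cells ID2 was 3.74, 4.25 and 4.65 in the controls and 3.93, 3.97 and 3.97 after KO, so that the KO samples lay inside a wide control range.

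Leaving out single samples changed these calls. Of the 3 genes called in MDA-MB-231 cells, 0 met the DEG criteria without control replicate 1 or 2, or without KO replicate 1, 2 or 3, and without control replicate 3 those that met them were ID1 and ID3. The log2 FC itself stayed positive in each of these fits, between 0.49 and 0.70 for BMP4, 0.77 and 1.09 for ID1, 0.47 and 0.65 for ID2, and 0.55 and 0.83 for ID3. In MDA-MB-468 cells 0 of the 10 genes met the criteria with any single sample left out.

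**Figure D2:**
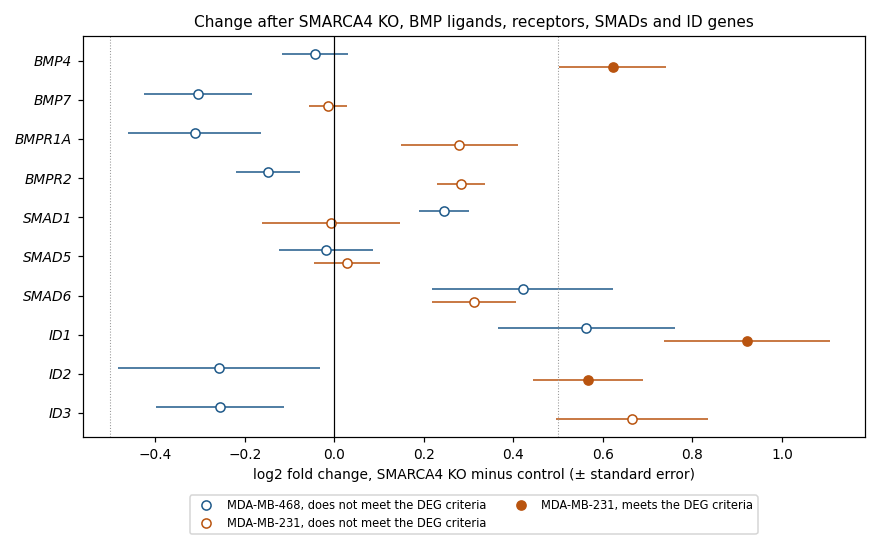
Change of each of the 10 genes after SMARCA4 KO, as the log2 FC on the horizontal axis with its SE from limma, with MDA-MB-468 in blue and MDA-MB-231 in orange. Filled points met the DEG criteria and dotted lines mark a log2 FC of 0.5 in either direction. BMP4, ID1 and ID2 are filled in MDA-MB-231 cells, no point is filled in MDA-MB-468 cells, and ID1 is the only ID gene to the right of 0 in both lines.

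The make-up of the ID family differed between the lines, and the share of ID1 was higher after KO in both. FPKM of ID1, ID2, ID3 and ID4 were summed in each sample, a summary added after the values were seen. The sum was 168 ± 38.1 FPKM in control MDA-MB-231 cells and 306 ± 37.4 after KO, against 169 ± 13.7 in control MDA-MB-468 cells and 164 ± 21.4 after KO (SD, n = 3 each). ID1 made up 78.9%, 80.9% and 80.1% of the sum in control MDA-MB-231 cells and 82.2%, 83.1% and 82.4% after KO, and ID3 20.3%, 18.6% and 19.5% against 17.2%, 16.6% and 17.1%. Neither share overlapped between control and KO, though both differences were a few percentage points. In MDA-MB-468 cells its share was 21.0%, 25.8% and 30.1% in the controls and 39.1%, 38.2% and 39.7% after KO, ranges that did not overlap. ID3 held 61.2%, 49.5% and 45.7% in those controls and 46.8%, 43.2% and 44.2% after KO, which overlapped. The share of ID2 overlapped too. ID4 held 10.2%, 13.6% and 11.2% in those controls and 6.53%, 8.85% and 6.61% after KO, without overlap. In MDA-MB-468 cells the summed FPKM of control and KO samples differed by less than their SD, while the ID1 share was higher after KO. Since ID1, ID2 and ID3 were chosen on these same KO changes, the shares are a description and nothing is read from them.

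The 250 bases before the transcription start were read for ID1, ID2 and ID3, whose KO samples lay above the controls in MDA-MB-231 cells, and for SMAD6, whose mean was higher in both lines. They come from RefSeq on the GRCh38.p14 build, a build other than that of the expression table. Windows existed for 9 of the 10 genes, BMP7 being the other, and all 15 windows of these genes were searched. Those of BMP4 and BMPR2, whose KO samples also lay above the controls in MDA-MB-231 cells, are not printed. Motifs were searched on both strands and stand in capitals: GGCGCC, a GC-rich site of SMAD1 and SMAD5; GTCTAGAC, the palindromic SMAD box; and CCAAT and TATAAA, added after the sequences were seen. The windows lie at chr20:31605039-31605288 (plus strand) for ID1, chr2:8681806-8682055 (plus) for ID2, chr1:23559502-23559751 (minus) for ID3 and chr15:66701986-66702235 (plus) for SMAD6, and read 5′ to 3′ as follows.
ID1: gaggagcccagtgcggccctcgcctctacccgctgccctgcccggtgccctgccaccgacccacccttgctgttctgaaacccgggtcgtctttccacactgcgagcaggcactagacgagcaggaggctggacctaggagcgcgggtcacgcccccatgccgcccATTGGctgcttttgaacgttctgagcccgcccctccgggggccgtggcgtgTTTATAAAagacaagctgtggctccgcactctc
ID2: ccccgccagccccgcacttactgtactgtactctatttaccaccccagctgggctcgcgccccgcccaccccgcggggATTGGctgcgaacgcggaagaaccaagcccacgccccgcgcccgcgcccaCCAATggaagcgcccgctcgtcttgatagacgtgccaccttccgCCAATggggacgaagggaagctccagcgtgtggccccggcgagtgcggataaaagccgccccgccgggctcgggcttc
ID3: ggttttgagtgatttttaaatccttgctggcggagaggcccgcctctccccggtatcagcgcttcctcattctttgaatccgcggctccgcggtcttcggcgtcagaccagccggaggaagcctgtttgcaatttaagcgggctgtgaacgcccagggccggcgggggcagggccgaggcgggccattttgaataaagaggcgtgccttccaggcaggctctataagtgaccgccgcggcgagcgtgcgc
SMAD6: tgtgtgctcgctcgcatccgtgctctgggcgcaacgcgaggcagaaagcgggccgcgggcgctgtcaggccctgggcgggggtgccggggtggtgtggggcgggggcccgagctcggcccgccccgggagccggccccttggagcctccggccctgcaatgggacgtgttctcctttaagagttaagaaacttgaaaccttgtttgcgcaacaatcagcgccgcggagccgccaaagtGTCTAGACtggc

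In these windows SMAD6 held GTCTAGAC, 12 bases before the start, a match found in 0.182% of the 35116 RefSeq windows of the same length. This was 1 of the 15 windows searched, and the others held no such match. ID1 held a CCAAT match on the minus strand, 84 bases before the start, and a TATAAA match on each strand, overlapping each other, nearest at 31 bases. ID2 held 3 CCAAT matches, and ID3 held none of the 4 motifs. Across all windows CCAAT occurred in 32.0% and TATAAA in 10.7%. GGCGCC, present in 16.4% of all windows, occurred in at least 1 window each of BMP4, BMPR2 and SMAD1. The E-box CANNTG, in lower case above and held by 61.8% of all windows, occurred once in that of ID2 and in none of the windows of ID1, ID3 and SMAD6. A match is a run of letters and does not show a bound site.

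The KO changes of the 10 genes were set side by side between the lines as differences in log2 FC, MDA-MB-468 minus MDA-MB-231. The difference was negative for 8 of the 10 genes, and 3 of them (BMP4, BMPR2 and ID3) had a limma interaction adjusted p below 0.05, where 14.7% of all genes did and 6.83% did with a negative difference. The largest were -0.92 (SE 0.224) for ID3, -0.82 (SE 0.258) for ID2 and -0.66 (SE 0.147) for BMP4. For ID1 the difference was -0.36 (SE 0.272). Since the genes were chosen on these same KO changes, nothing is read from this count or from the sizes of the differences.

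The other genes of the BMP pathway were taken from a list of 67 symbols, of which 27 were in the table. In MDA-MB-231 cells 2 of the 27 met the DEG criteria (7.41% of the list, 3.70% of all genes), and 8 had an unadjusted p below 0.05. The ligand BMP8B rose from 0.96, 0.93 and 0.86 to 1.53, 1.42 and 1.43 (log2 FC 0.54, SE 0.0544, limma adjusted p = 0.0095). BMP8B is nearly identical to BMP8A, so that reads may be shared between them. FST, encoding follistatin, which binds activins and some BMPs, fell from 4.53, 4.16 and 4.70 to 3.41, 3.40 and 3.81 (log2 FC -0.92, SE 0.179, limma adjusted p = 0.035). The study had named BMP8B and FST on these samples, so they are no independent evidence. BMP8B did not pass without KO replicate 2 (limma adjusted p = 0.05 after rounding), and FST did not pass without control replicate 1 or 3 or KO replicate 1 or 2 (limma adjusted p between 0.077 and 0.12). In MDA-MB-468 cells 0 of the 27 met the DEG criteria with limma, and 5 had an unadjusted p below 0.05. Without KO replicate 1, 1 of the 27 met them.

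By role, the 5 receptors and co-receptors, the 8 intracellular components and the E proteins TCF3 and TCF12 held 0 DEGs in either line. At an unadjusted p below 0.05, 1 of the receptors and 1 of the intracellular components passed in MDA-MB-231 cells, 0 of either in MDA-MB-468 cells, and 0 of the E proteins in both. The medians of the 27 genes were 0.018 in the MDA-MB-468 line and 0.0053 in the MDA-MB-231 line, close to those of all genes. RGMB, ID4, NBL1 and TWSG1 are named here after their values were seen. RGMB, a co-receptor that the study also named, had a log2 FC of -0.68 in MDA-MB-231 cells (SE 0.168, limma adjusted p = 0.056). ID4, the remaining ID gene, was 4.13, 4.52 and 4.44 in control MDA-MB-468 cells and 3.74, 3.84 and 3.48 after KO (log2 FC -0.68, SE 0.14, limma adjusted p = 0.06), opposite in sign to ID1 in the same samples. NBL1, a secreted BMP antagonist, was above the controls in every KO sample of both lines, at a log2 FC of 0.46 (limma adjusted p = 0.084) in the MDA-MB-468 line and 0.27 (limma adjusted p = 0.093) in the MDA-MB-231 line. TWSG1, listed with NBL1 among the antagonists and modulators, was below the controls in every KO sample of both lines. Its log2 FC was -0.13 (limma adjusted p = 0.17) in the MDA-MB-468 line and -0.15 (limma adjusted p = 0.15) in the MDA-MB-231 line.

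**Figure D3:**
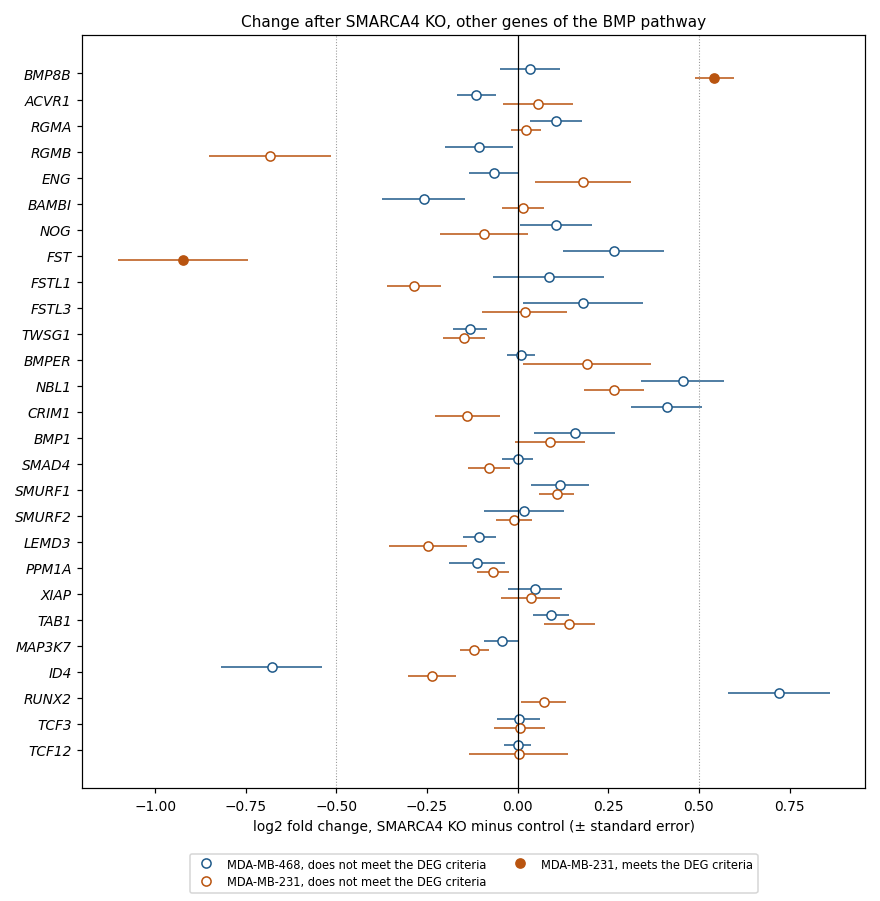
Change of the 27 other BMP pathway genes after SMARCA4 KO, as the log2 FC on the horizontal axis with its SE from limma, with MDA-MB-468 in blue and MDA-MB-231 in orange. Dotted lines mark a log2 FC of 0.5 in either direction. The filled points, which met the DEG criteria, are BMP8B at 0.54 and FST at -0.92, both in MDA-MB-231 cells.

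The KO change differed between the lines for 4 of the 27 genes by the limma interaction test (14.8%, beside 14.7% of all genes). FST had a difference of 1.19 (SE 0.23, adjusted p = 0.0075) and BMP8B of -0.51 (SE 0.109, adjusted p = 0.013), each with its change in MDA-MB-231 cells. FST was near 0 in MDA-MB-468 cells, at 0.117 FPKM in the controls and 0.353 FPKM after KO, and with a pseudocount of 0.1 its difference was 1.95 and no longer passed (limma adjusted p = 0.051). RUNX2, a transcription factor of bone formation, had a difference of 0.65 (SE 0.159, adjusted p = 0.022). It was 1.42, 0.93 and 1.03 in control and 1.73, 1.86 and 1.94 in KO MDA-MB-468 cells, where its log2 FC of 0.72 had a limma adjusted p of 0.056, and 0.07 was its log2 FC in MDA-MB-231 cells. Blocking on replicate gave this difference a limma adjusted p of 0.053, and it also missed the threshold without MDA-MB-468 KO replicate 2 (0.052) or MDA-MB-231 KO replicate 1 (0.05 after rounding). CRIM1, a membrane protein that binds BMPs and that the study had named among YAP targets, had a difference of 0.55 (SE 0.14, limma adjusted p = 0.025), lost in 5 of the 12 fits without 1 sample (limma adjusted p 0.052 to 0.059). Those samples were MDA-MB-468 control replicate 1, MDA-MB-468 KO replicates 2 and 3, and MDA-MB-231 KO replicates 1 and 2.

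Between control cells of the lines, which are the same control samples as in the KO comparisons, 7 of the 10 genes met the DEG criteria, 5 higher and 2 lower in MDA-MB-468 cells, where 64.2% of all genes did (32.8% higher and 31.4% lower). The log2 difference, MDA-MB-468 minus MDA-MB-231, was -5.27 for BMP4, -1.60 for ID1, 3.73 for BMP7, 3.47 for ID2, 2.41 for SMAD1, 1.42 for ID3 and 0.69 for SMAD6. BMPR1A, BMPR2 and SMAD5 differed by 0.28, -0.02 and -0.13 and did not meet them. Of the other 27 pathway genes 19 met the criteria (70.4%), 6 higher and 13 lower in MDA-MB-468 cells. Among the antagonists and modulators 7 of 9 met the criteria as lower and 0 as higher in MDA-MB-468 cells.

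The table holds only genes with an average and an SD of FPKM of at least 1 over all samples, so that a gene near 0 in a line entered through the other line and had to differ, and these counts support nothing by themselves. Some of these genes, singled out after their values were seen, differed by orders of magnitude. SMAD4, the shared partner of SMAD1 and SMAD5, was at 0.0333 FPKM in control MDA-MB-468 cells, and at 30.7 FPKM in control MDA-MB-231 cells (log2 difference -4.94). MDA-MB-468 is known to carry a homozygous deletion of SMAD4. After KO SMAD4 had a log2 FC of -0.0004 and -0.08 in the MDA-MB-468 and MDA-MB-231 lines, with overlapping groups in both. NOG, encoding the BMP antagonist noggin, was at 0.11 and 28.1 FPKM, FST at 0.117 and 21.3 FPKM, and FSTL1 at 0.453 and 75.7 FPKM in control cells of MDA-MB-468 and of MDA-MB-231, respectively. Within control MDA-MB-231 cells BMP4 stood above 94.7% of all genes, FSTL1 above 87.2%, NOG above 65.6% and FST above 57.5%. ID4 was instead higher in control MDA-MB-468 cells, at 19.7 FPKM, than in control MDA-MB-231 cells, at 0.203 FPKM. The E protein gene TCF12 was listed at 0 in all 6 MDA-MB-468 samples, while it was 4.33 ± 0.26 (SD, n = 3) in control MDA-MB-231 cells. TCF3, the other E protein gene of the table, was at 74.6 FPKM in control MDA-MB-468 and 54.1 FPKM in control MDA-MB-231 cells.

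**Figure D4:**
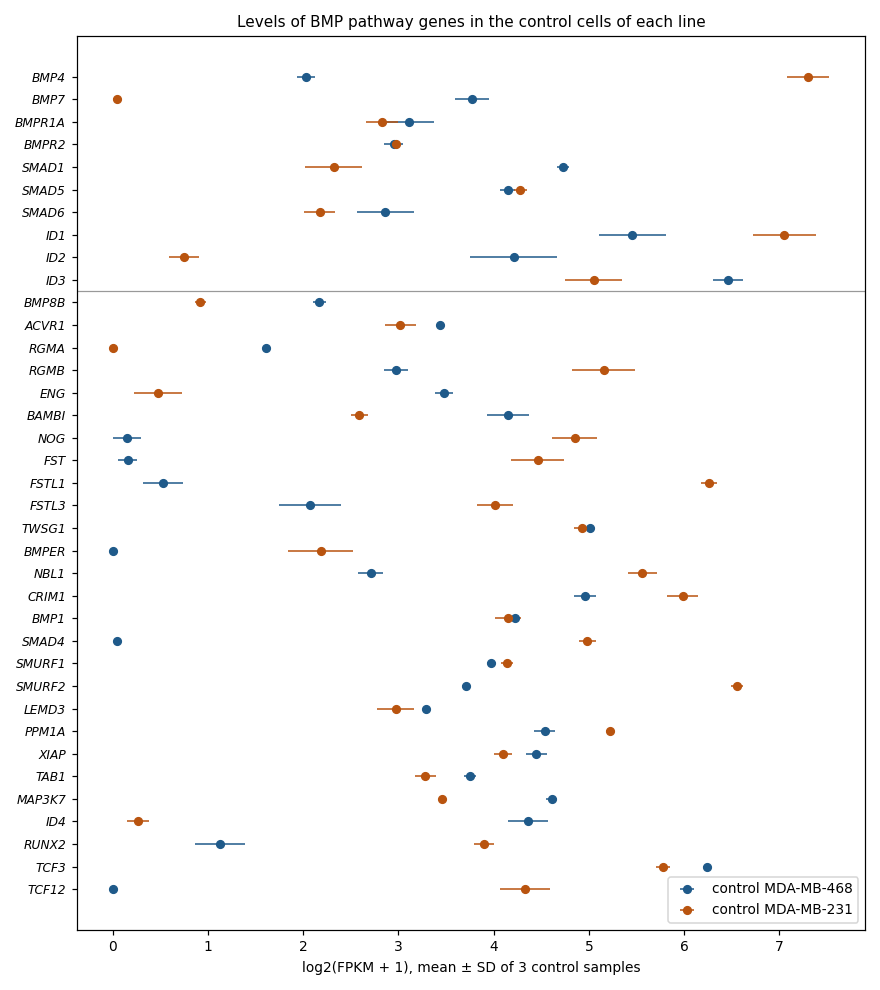
Levels of the 10 genes (above the line) and the 27 other BMP pathway genes (below it) in control cells, as the mean ± SD of log2(FPKM + 1) over 3 samples on the horizontal axis, with MDA-MB-468 in blue and MDA-MB-231 in orange. BMP4, NOG, FST, FSTL1, SMAD4 and TCF12 lie far to the right in MDA-MB-231 cells, and BMP7, ID2 and ID4 in MDA-MB-468 cells.

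Markers of the lines also differed in the KO comparisons. In MDA-MB-231 cells, 1 of the 5 epithelial markers met the DEG criteria, as did 3.70% of all genes. It was CDH1 (log2 FC 0.54, limma adjusted p = 0.044), near 0 at 0.267 FPKM in the controls and 0.84 FPKM after KO. In control MDA-MB-468 cells CDH1 was at 44.45 FPKM. With a replicate block 0 genes met the criteria in MDA-MB-231 cells. The summed FPKM of the 5 epithelial markers was 510 to 725 in the MDA-MB-231 controls and 707 to 783 after KO. The summed FPKM of the 4 mesenchymal markers in the table was 2239 to 2542 in the controls and 1974 to 2198 after KO, with VIM at a log2 FC of -0.39 (limma adjusted p = 0.031). AXL was at -0.28, CAV1 at -0.03 and CD44 at 0.30, the KO samples of CD44 lying above all controls. In MDA-MB-468 cells 0 of these 9 markers met the DEG criteria with limma, and 2 had an unadjusted p below 0.05. CAV1 there was 4.00, 4.44 and 4.54 in the controls and 5.13, 6.01 and 6.15 after KO (log2 FC 1.44, limma adjusted p = 0.062), and VIM had a log2 FC of 0.42 (limma adjusted p = 0.21). The summed FPKM of the 4 mesenchymal markers, most of it CD44, was 851 to 980 in those controls and 786 to 944 after KO, and that of the 5 epithelial markers 3801 to 4141 and 4175 to 4316. No listed marker was at 0 in a group. EPCAM was at 14.0 FPKM in control and KO MDA-MB-231 cells. ID4 and BMP7, both higher in control MDA-MB-468 than in control MDA-MB-231 cells, were at 0.02 FPKM each after KO of MDA-MB-231 cells. CDH1, KRT19 and ID2, also higher in control MDA-MB-468 cells, lay above the controls in all MDA-MB-231 KO samples. The part of these markers in the ID and BMP4 differences was not tested.

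The genes most alike to BMP4, ID1 and ID3 were taken by the smallest root mean square difference of log2 values, relative to the control mean of the same line, over the 12 samples. For BMP4 these were ACAA2 (0.0824), RP11-24F11.2 (0.0866) and THBD (0.0905), where the median of all genes was 0.367. For ID1 they were ADORA2A (0.14), ISYNA1 (0.196) and REEP2 (0.196), with a median of 0.602 over all genes. For ID3 they were ACADS (0.105), MALAT1 (0.108) and VLDLR (0.128), with a median of 0.433. ADORA2A, an adenosine receptor gene, had a log2 FC of 0.49 in the MDA-MB-468 line and 1.03 in the MDA-MB-231 line, beside 0.56 and 0.92 for ID1. A search over all genes for the smallest difference returns close fold changes by its design, so that nothing is read from this likeness.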

How the data were processed

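RNA-seq of 12 samples was used. Reads had been trimmed by the authors (Trimmomatic) and aligned to hg19 (STAR); they estimated FPKM with RSEM (the annotation is not given in the sources used here), removed genes with an average FPKM or SD below 1, and deposited log2(FPKM + 1) values of 11529 genes. Depth is unknown. A date replaced the symbol in 18 rows, which were tested but not named. Fits were made per cell line in limma 3.58.1 under R 4.3.3, using lmFit and eBayes without trend, with Benjamini-Hochberg adjustment over all genes. The interaction and the control line contrast came from 1 fit of all samples in 4 groups. The 10 genes and the lists were chosen with earlier results of these data known. Named were the 10 genes, pathway genes meeting a criterion in the KO or interaction tests, SMARCA4, the listed markers and the 3 genes most alike to BMP4, ID1 and ID3. RGMB, ID4, NBL1, TWSG1, SMAD4, NOG, FSTL1, TCF3 and TCF12 were added after their values were seen. Deviations of same-numbered samples (titles) correlated at 0.25, 0.16 and 0.12 in MDA-MB-468 cells, above the 0.1 taken to show pairing, although the p numbers of the descriptions run 26, 27 and 28 in controls and 25, 26 and 27 in KO samples. The MDA-MB-231 values were -0.054, 0.074 and -0.11, although controls and KO samples there share the p numbers 10, 11 and 12, whose meaning the labels do not give. Alternatives were a pseudocount of 0.1, a filter on mean log2 values over 2, scaling to the 75th percentile, an intensity trend, a replicate block, 1 fit of all samples, and each sample left out. The fits were tested on simulated data. Positions are of GENCODE genes on GRCh37.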

Additional observations from a re-analysis of the deposited data

Results flagged for a closer look

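The interaction test between the lines, MDA-MB-468 minus MDA-MB-231, gave 4 differences in log2 FC among the BMP pathway genes outside the group of 10. They were 1.19 for FST, 0.65 for RUNX2, 0.55 for CRIM1 and -0.51 for BMP8B. FST and BMP8B met the DEG criteria in MDA-MB-231 cells, and RUNX2 and CRIM1 in neither line.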

How the results depend on the processing

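With a replicate block in MDA-MB-231 cells, where control and KO samples share replicate and p numbers but same-numbered samples did not deviate together, the counts of DEGs fell from 3 to 0 among the 10 genes and from 2 to 0 among the other pathway genes, as did that of all genes, from 426 to 0 (smallest adjusted p 0.052). With the block 0 of the 10 and 0 of the other pathway genes met the criteria in MDA-MB-468 cells, as without it, and 3 in place of 4 differences between the lines passed, without that of RUNX2. Over all genes the block gave 241 in place of 247 DEGs in MDA-MB-468 cells. It gave 1463 in place of 1699 genes in the interaction test. The interaction calls of the 10 genes were not examined with a block. The line contrast was not fitted with a block. Among the 10 genes in MDA-MB-231 cells, ID3 also met the criteria with a filter on mean log2 values over 2 and with 75th percentile scaling. In 1 fit of all samples ID3 met them and ID2 did not. Leaving out 1 sample gave 0 to 2 of the 10 genes in MDA-MB-231 cells, 0 to 2 of the other pathway genes there and 0 to 1 in MDA-MB-468 cells, and 2 to 5 differences between the lines. The count of other pathway DEGs in MDA-MB-468 cells, 0 as reported, was 2 with a filter on mean log2 values over 2, 1 with an intensity trend and 2 in 1 fit of all samples. With a pseudocount of 0.1 the FST difference between the lines was 1.95 (adjusted p = 0.051). The causes were not tested. No called direction reversed under the alternatives run. Over all genes, the MDA-MB-468 count of 247 DEGs was 0 without control replicate 2 or KO replicate 2 (smallest adjusted p 0.054 and 0.062) and 537 in 1 fit of all samples. Values near 0, such as ID2 in MDA-MB-231 cells, have the least precision that can be judged without depth.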
